A study of Mus musculus with 11 samples.

Results

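Igfn1, Ildr1, Tmem100, Mdga1 and the long non-coding RNA gene 5930438M14Rik are 5 genes, of the 24421 gene symbols counted, whose transcripts were clearly higher in whole WT/flox muscle. They were selected on their values in the muscle comparison of WT/flox with WT, with no fixed limit of fold or p, so their difference in muscle is described here and not tested. The libraries came from skeletal muscle of mice given tamoxifen. Per the series design, the mice carried Hic1CREERT2, a Td.tomato reporter and b-CATENIN exon3 WTflox, so that Cre acts in cells that use the Hic1 promoter. Loss of exon 3 takes away the phosphorylation sites by which beta-catenin is marked for degradation, and stable beta-catenin drives Wnt target genes. The 11 libraries form 4 groups, each library named for a different mouse. WT/flox muscle is whole lysate of the tibialis anterior of 3 mice (71B3, 71B4, 71B5) at day 56 after tamoxifen. WT muscle is the same lysate of 2 mice (73A5, 73A7) at day 56. WT/flox progenitors are mesenchymal progenitors sorted as CD45-, CD31-, Sca1+, tdTomato+ and alpha7- from 3 mice, 74A1 and 72B7 at day 14 and 74A3 at day 56. WT progenitors are the same sort from 3 mice (72B8, 74A2, 73C3) at day 14. The genotype WT/flox is written WTlFlox in the labels, which give no ages and do not state whether the WT lysate mice carried the Cre and the reporter.

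The members differ in what they encode. Igfn1 is a muscle protein of immunoglobulin-like and fibronectin type III domains that lies at the Z-disc and binds KY, filamin C and the elongation factor eEF1A. Ildr1, also called angulin-2, is a membrane receptor of tricellular tight junctions, known from epithelia and the inner ear. Tmem100 is a small transmembrane protein that endothelial cells make in response to BMP9 and BMP10 through the receptor ALK1. Mdga1 is a GPI-anchored surface protein that binds neuroligin-2 and limits its pairing with neurexin at synapses. 5930438M14Rik is annotated as a lincRNA.

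Library totals ran from 13119843 to 19449227 counts. The floxed gene Ctnnb1 averaged 308 ± 35.1 CPM in WT/flox muscle and 283 ± 47.1 CPM in WT muscle (SD, n = 3 and 2), and 394 ± 24.1 CPM in WT/flox progenitors and 490 ± 36.3 CPM in WT progenitors (SD, n = 3 each). These counts cover all exons of Ctnnb1 and cannot show whether exon 3 was lost. Hic1 averaged 6.37 ± 0.193 CPM in WT/flox muscle and 4.94 ± 0.461 CPM in WT muscle, against 82.4 ± 13.3 CPM in WT/flox progenitors and 102 ± 12.1 CPM in WT progenitors. The progenitor markers were present in all groups: 14 of 14 were tested in each material, edgeR called 1 higher in progenitors and 0 in muscle, and together they held 108909 to 123223 CPM in WT/flox progenitors and 112564 to 119841 CPM in WT progenitors. FAPs is the cell type written for both materials in the authors' sample tables, while the labels call the muscle samples whole lysate. The labels were followed. The 11 myofibre markers together held 138738 to 174053 CPM in WT/flox muscle and 165678 to 179143 CPM in WT muscle, against 21.2 to 26.7 CPM in WT/flox progenitors and 20.6 to 134 CPM in WT progenitors. The WT/flox muscle mice all have identifiers that begin with 71B and the WT muscle mice identifiers that begin with 73A, so whatever those identifiers mark and genotype cannot be told apart.

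The first bases around the annotated starts are shown for the 3 members with almost no counts in progenitors. Each window runs from 250 bases before to 50 bases after the start, 5′ to 3′ on the gene's own strand, from RefSeq on GRCm38.p6. Capitals mark the E-box letters CANNTG, to which myogenic and other basic helix-loop-helix factors can bind. The windows are chr1:136006293-136006592 on the minus strand for Igfn1, chr16:36693728-36694027 on the plus strand for Ildr1 and chr13:101231877-101232176 on the plus strand for 5930438M14Rik.
Igfn1: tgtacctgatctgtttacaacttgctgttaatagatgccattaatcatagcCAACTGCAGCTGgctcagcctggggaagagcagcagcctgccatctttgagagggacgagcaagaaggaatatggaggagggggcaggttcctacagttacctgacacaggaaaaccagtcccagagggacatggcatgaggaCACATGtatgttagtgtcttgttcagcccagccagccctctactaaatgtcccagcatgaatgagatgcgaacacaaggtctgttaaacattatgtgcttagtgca
Ildr1: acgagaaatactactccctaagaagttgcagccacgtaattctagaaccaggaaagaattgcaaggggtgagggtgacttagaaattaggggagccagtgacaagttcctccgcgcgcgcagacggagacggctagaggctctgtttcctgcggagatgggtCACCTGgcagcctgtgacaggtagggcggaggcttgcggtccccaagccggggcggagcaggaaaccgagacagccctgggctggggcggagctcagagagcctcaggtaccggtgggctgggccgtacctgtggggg
5930438M14Rik: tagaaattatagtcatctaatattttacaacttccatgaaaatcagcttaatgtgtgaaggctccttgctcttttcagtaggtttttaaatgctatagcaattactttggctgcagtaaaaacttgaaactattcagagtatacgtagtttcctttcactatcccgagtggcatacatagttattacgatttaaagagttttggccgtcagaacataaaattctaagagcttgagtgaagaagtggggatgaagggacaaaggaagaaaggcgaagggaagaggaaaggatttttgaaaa
The Igfn1 window holds 3 matches to CANNTG, the Ildr1 window 1, and the windows of Mdga1 (chr17:29887833-29888132, minus strand) and 5930438M14Rik 0. The letters read the same on both strands, and 72.3% of 32851 promoter windows of this length hold at least 1 match. The TCF/LEF letters (CTTTGAT or CTTTGAA or CTTTGTT or CTTTGTA), searched on both strands, were in 0 of the 4 windows and in 16.9% of all windows. A match is only a run of letters. The windows differ in base content, at 48.7% G and C for Igfn1, 61.0% for Ildr1, 71.3% for Mdga1 and 35.7% for 5930438M14Rik, beside a median of 52.7% over all windows. Tmem100 is named only. The RefSeq start used for Mdga1 lies inside the GENCODE span of the gene (29827949 to 29970087, minus strand) and not at its 5′ end. The values for Mdga1 therefore describe that RefSeq start alone.

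Igfn1 (ENSMUSG00000051985, chromosome 1, 135953578 to 136006342, minus strand, GRCm38) was the most abundant member in muscle by counts. It had 325, 239 and 417 CPM in WT/flox muscle (71B3, 71B4, 71B5), against 44.7 and 18.8 CPM in WT muscle (73A5, 73A7). CPM are the counts of a library scaled to a common total. The lowest WT/flox library lay above the highest WT library, and the 2 WT libraries differed more from each other, in proportion, than the 3 WT/flox libraries did. The log2 fold change of WT/flox over WT was 3.24 (SE 0.37), and it depended on the WT library, with 3.95 without 73A5 and 2.77 without 73A7. In progenitors Igfn1 had 1 count in each of the 3 WT/flox libraries, against 1, 1 and 0 counts in the WT libraries (74A2, 72B8, 73C3). These 3 counts in WT/flox progenitors and 2 in WT progenitors were too few to test. Its share of reads in WT/flox muscle was 4478 times that in WT/flox progenitors (exact 95% counting interval 1532 to 21717), and in WT muscle 709 times that in WT progenitors (196 to 5863). Counting intervals here cover counting error only.

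Ildr1 (ENSMUSG00000022900, chromosome 16, 36693978 to 36726804, plus strand) was a low transcript in WT muscle and a moderate one in WT/flox muscle. It had 8.998, 9.39 and 15.7 CPM in WT/flox muscle (71B3, 71B4, 71B5), from 175, 177 and 288 counts, against 0.527 and 0.355 CPM in WT muscle, from 9 and 6 counts. The groups did not overlap, and 71B5 stood above the other WT/flox libraries. The log2 fold change was 4.53 (SE 0.34), between 4.31 and 4.79 with any 1 muscle library left out. Ildr1 reached the filter on low counts through the WT/flox libraries. In progenitors Ildr1 had 0 counts in the 3 WT/flox libraries and 1 count over the 3 WT libraries. Its share of reads in WT/flox muscle was thus at least 155-fold higher than in WT/flox progenitors, with 3 counts over that group taken as the floor.

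Epithelial markers were compared because Ildr1 is known from epithelia. The 6 markers together had 0.771, 3.24 and 6.15 CPM in WT/flox muscle (71B3, 71B4, 71B5), against 0.293 and 0.651 CPM in WT muscle. Ildr1 alone was above the sum of these 6 in each of the 3 WT/flox libraries. Krt14, a keratin of basal epidermis, had 0, 37 and 79 counts in the same WT/flox libraries, against 0 and 1 in WT muscle, while Ildr1 had 175 counts in the library where Krt14 had 0. Of the 2 epithelial markers tested in muscle 0 were called by edgeR (2 at an unadjusted p under 0.05), Krt14 at 5.68 (SE 2.05, adjusted p = 0.395) and Cdh1 at 1.55 (SE 0.62, adjusted p = 0.460). In progenitors Epcam, Krt8, Krt18 and Krt14 had no counts. Other skin genes, picked after their values were seen, followed Krt14. The epidermal genes Krt5, Krt2 and Dsp together had 4, 84 and 193 counts in WT/flox muscle (71B3, 71B4, 71B5), against 2 and 2 in WT muscle. The pigment-cell genes Dct, Pmel, Tyrp1 and Tyr together had 30, 411 and 790 counts in WT/flox muscle, against 9 and 15 in WT muscle. The libraries 71B4 and 71B5 held far more of these transcripts than 71B3, which lay nearer to WT. Ildr1 was at 8.998 CPM in 71B3, 9.39 CPM in 71B4 and 15.7 CPM in 71B5. It thus had the same order over the 3 WT/flox libraries as the skin genes, with 71B3 and 71B4 close together. Of these 7 genes edgeR called 0 (3 epidermal and 4 pigment-cell genes at an unadjusted p under 0.05). The part of skin or other epithelial cells in the Ildr1 difference beyond these values was not tested.

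Tmem100 (ENSMUSG00000069763, chromosome 11, 90030348 to 90036508, plus strand) differed from the other members in being abundant in progenitors. It had 76.4, 63.2 and 74.9 CPM in WT/flox muscle (71B3, 71B4, 71B5), against 17.6 and 16.0 CPM in WT muscle. Libraries within a group lay close together and the groups did not overlap. The log2 fold change in muscle was 1.97 (SE 0.16). In progenitors it had 258, 224 and 352 CPM in WT/flox libraries (74A1, 72B7, 74A3), against 205, 116 and 234 CPM in WT libraries (72B8, 74A2, 73C3). The progenitor groups overlapped, and the highest value belonged to 74A3, the WT/flox library of day 56. The rule did not use the progenitor values, so this comparison was tested: the log2 fold change was 0.64 (SE 0.28) and did not pass (edgeR adjusted p = 0.378). It was 0.43 (adjusted p = 0.853) without 74A3 and 0.70 (adjusted p = 0.191) with sex as a term. Tmem100 was highest in WT/flox progenitors, followed by WT progenitors, WT/flox muscle and WT muscle, and only the progenitor neighbours in that order overlapped.

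Mdga1 (ENSMUSG00000043557, chromosome 17, 29827949 to 29970087, minus strand) was steady between libraries of a group. It had 80.3, 83.1 and 75.9 CPM in WT/flox muscle (71B3, 71B4, 71B5), against 23.3 and 19.8 CPM in WT muscle. The log2 fold change in muscle was 1.78 (SE 0.17), between 1.70 and 1.88 with any 1 muscle library left out. In progenitors it was low, at 3.31, 4.25 and 4.18 CPM in WT/flox libraries (74A1, 72B7, 74A3), against 4.42, 3.96 and 2.02 CPM in WT libraries (72B8, 74A2, 73C3). The progenitor groups overlapped, with a log2 fold change of 0.24 (SE 0.33, edgeR adjusted p = 0.946). Its share of reads in WT/flox muscle was 20.4 times that in WT/flox progenitors (exact 95% counting interval 17.5 to 24.1), and in WT muscle 6.40 times that in WT progenitors (5.36 to 7.68). The annotated antisense gene Gm16758 overlaps Mdga1 and is not among the counted symbols, and the strand setting of the counting is not given in the sources used here, so reads of these genes cannot be told apart.

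5930438M14Rik (ENSMUSG00000114590, chromosome 13, 101232127 to 101247551, plus strand) had 55, 54 and 58 counts in WT/flox muscle (71B3, 71B4, 71B5), against 0 and 1 in WT muscle (73A5, 73A7). That was 2.83, 2.87 and 3.16 CPM in WT/flox muscle, against 0 and 0.0592 CPM in WT muscle. The 3 WT/flox libraries were nearly equal, and the gene reached the filter on low counts through them. The share of reads over WT/flox muscle was 100 times that over WT muscle. That ratio is imprecise, since WT muscle held 1 count. The fitted log2 fold change, 6.24 (SE 0.58), was 8.75 without 73A7, the library with that count, and 5.34 without 73A5. The gene had 0 counts in all 6 progenitor libraries. Its share of reads in WT/flox muscle was at least 40.5-fold higher than in WT/flox progenitors, with 3 counts over that group as the floor.

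**Figure D1:**
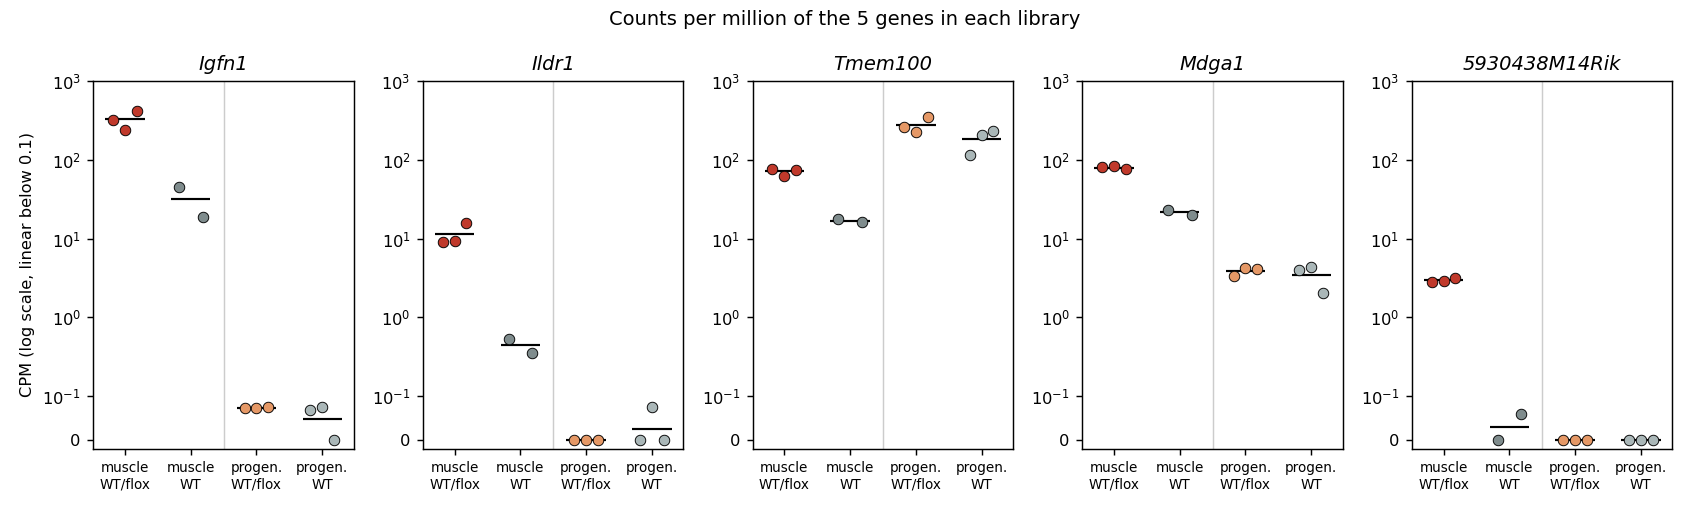
CPM (log axis, linear below 0.1) of each gene in each library, with points for libraries and lines for group means (n = 3, 2, 3 and 3 from left to right). Every WT/flox muscle point lies above every WT muscle point, while Igfn1, Ildr1 and 5930438M14Rik sit at 0 to 0.0762 CPM in progenitors and Tmem100 at 116 to 352 CPM.

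In muscle 5 of the 5 members were among the 65 genes called higher by edgeR, which is 0.514% of 12654 genes tested, and in 5 of 5 every WT/flox library lay above every WT library, as in 20.5% of genes tested. Both counts were fixed by how the members were chosen, and with 71B5 left out edgeR called 0 genes in muscle (1023 at an unadjusted p under 0.05). Among the 65 genes, 5930438M14Rik ranked 1, Ildr1 6, Igfn1 9, Tmem100 19 and Mdga1 28 by fold change. The rank of 5930438M14Rik rests on 1 count in WT muscle, and it was 3 without 73A5. By mean level in WT/flox muscle Igfn1 ranked 3, Mdga1 13, Tmem100 14, Ildr1 48 and 5930438M14Rik 62. A further 0.213% of genes were called lower in muscle, 0.727% in all, and every WT/flox library lay below every WT library for 6.80%. An unadjusted edgeR p under 0.05 was found for 1226 of the 12654 genes tested in muscle and 1548 of the 12392 tested in progenitors. In progenitors edgeR called 2.34% of 12392 genes higher and 1.32% lower, 3.66% in all, and every WT/flox library lay above every WT library for 6.86%. Of the 5 members 2 were tested in progenitors and 0 called (1 at an unadjusted p under 0.05, 0 by DESeq2 and 0 by limma voom), and for 0 of these 2 did all WT/flox libraries lie above all WT libraries.

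Scaled to exon length, the levels in muscle fell into a different order. Tmem100 averaged 40.5 CPM per kb of exon in WT/flox muscle and 9.53 in WT muscle. Igfn1, with 8996 bp of annotated exon against 1767 bp for Tmem100, averaged 36.3 CPM per kb in WT/flox muscle and 3.53 in WT muscle. The WT/flox libraries of these 2 genes overlapped, at 35.8 to 43.2 CPM per kb for Tmem100 and 26.6 to 46.3 for Igfn1, while their WT libraries did not. Mdga1 followed at 8.38 CPM per kb in WT/flox muscle and 2.26 in WT muscle, Ildr1 at 2.64 and 0.103, and 5930438M14Rik at 1.21 and 0.0121. In WT/flox muscle these last 3 did not overlap with each other, whereas in WT muscle Igfn1 and Mdga1 overlapped (2.09 to 4.97 and 2.08 to 2.45 CPM per kb).

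**Figure D2:**
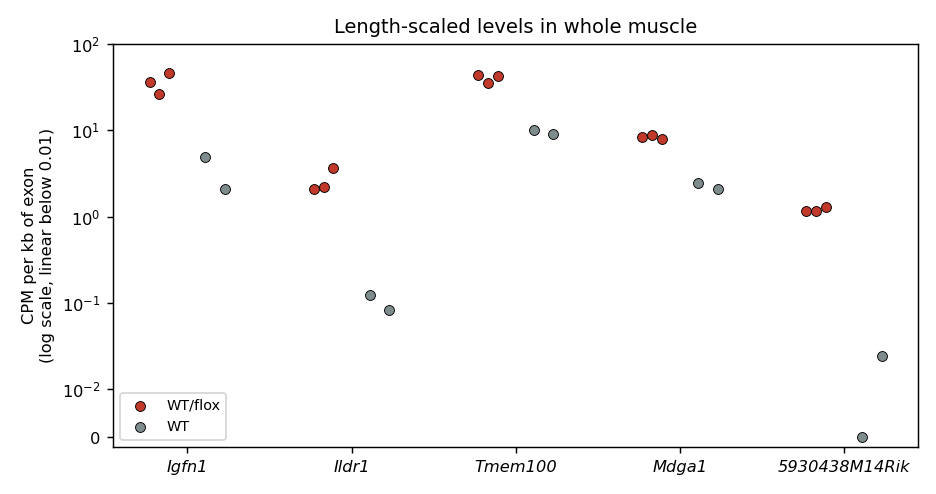
Levels per kb of annotated exon (CPM per kb, log axis, linear below 0.01) in the 3 WT/flox and 2 WT muscle libraries, one point per library. Tmem100 and Igfn1 overlap in WT/flox muscle (40.5 and 36.3 CPM per kb on average), and 5930438M14Rik is lowest in both genotypes.

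How much of each difference progenitor RNA could carry was calculated from shares of reads. Because each material has a table of its own, levels set across them are plain CPM and not tested. For each of 14 progenitor markers the level in each muscle library was divided by the mean level in progenitors of the same genotype, and the median over markers was taken for that library. It was 2.92%, 2.33% and 2.97% in WT/flox muscle (71B3, 71B4, 71B5), against 1.44% and 2.16% in WT muscle (73A5, 73A7). In plain CPM the groups did not overlap, with means of 2.74% in WT/flox muscle and 1.80% in WT muscle. The margin between 71B4 and 73A7 was narrow. Plain CPM leave out the TMM scaling factors, which were 0.995 for 71B4 and 0.924 for 73A7. Whether the shares stay apart under that scaling was not tested. Single markers ran from 1.60% to 7.93% in WT/flox muscle and from 0.881% to 7.69% in WT muscle. Summed, the markers held 2625 to 3195 CPM in WT/flox muscle and 1505 to 2451 CPM in WT muscle, and edgeR called 0 of 14 in muscle (4 at an unadjusted p under 0.05, 3 by DESeq2, 0 by limma voom). Other mesenchymal cells of muscle also use these markers. In bulk samples more cells of a type and more RNA per cell cannot be told apart.

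For 4 of the 5 members the difference between WT/flox and WT muscle was larger than the whole level in WT/flox progenitors. Igfn1 was 295 CPM higher in WT/flox than in WT muscle, where pure WT/flox progenitor RNA held 0.0728 CPM. Mdga1 was 58.2 CPM higher, where pure progenitor RNA held 3.91 CPM. At the marker-based share progenitor RNA would bring 0.107 CPM of Mdga1 to WT/flox muscle, 0.134% of its level there. Ildr1 was 10.9 CPM higher and 5930438M14Rik 2.92 CPM higher, and both were at 0 counts in WT/flox progenitors.

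Tmem100 was the member for which progenitor RNA held more than muscle. Its level in WT/flox muscle was 25.7% of that in WT/flox progenitors (22.7% to 27.5% over the 3 muscle libraries), against 9.10% in WT (8.67% to 9.52% over the 2 libraries). Both values lie above the highest progenitor marker of the genotype. At the marker-based share progenitor RNA would carry 7.62 of the 71.5 CPM in WT/flox muscle, which is 10.7%, and 3.33 of the 16.8 CPM in WT muscle, which is 19.8%. Of the difference of 54.7 CPM between WT/flox and WT muscle it would carry 4.29 CPM, or 7.84%. The whole difference equals 19.7% of the WT/flox progenitor level. The share depended on the marker, and with Hic1 alone, which gave 7.73% for WT/flox muscle, the carried level was 21.5 CPM. With the day 56 library 74A3 as the only WT/flox progenitor source it was 10.1 CPM. The calculation takes progenitor RNA in muscle to have the profile of the sorted cells, 2 of 3 WT/flox libraries of which are of day 14. Which cells of the muscle hold the members' RNA was not tested.

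The same percentage was lower for 5 Wnt response genes than for Tmem100 in WT/flox. Notum, a secreted enzyme that inactivates Wnt ligands, had a level in WT/flox muscle that was 2.43% of that in WT/flox progenitors. The Wnt antagonist Dkk2 gave 3.48%, the Wnt inhibitor Apcdd1 4.19% and the feedback inhibitor Nkd1 4.53%. These 4 lay within the range of the progenitor markers. Axin2, a scaffold of the beta-catenin destruction complex, gave 12.3%, and had 9.74 CPM in WT muscle where WT progenitors had 3.54 CPM. In WT the order differed. Axin2 at 275%, Notum at 33.1% and Nkd1 at 28.3% lay above Tmem100 at 9.10%, and Apcdd1 at 5.69% and Dkk2 at 3.65% lay below it. WT progenitors held little of the first 3 of these, at 3.54 CPM of Axin2, 0.266 CPM of Notum and 8.44 CPM of Nkd1. They held 57.5 CPM of Apcdd1 and 109 CPM of Dkk2.

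**Figure D3:**
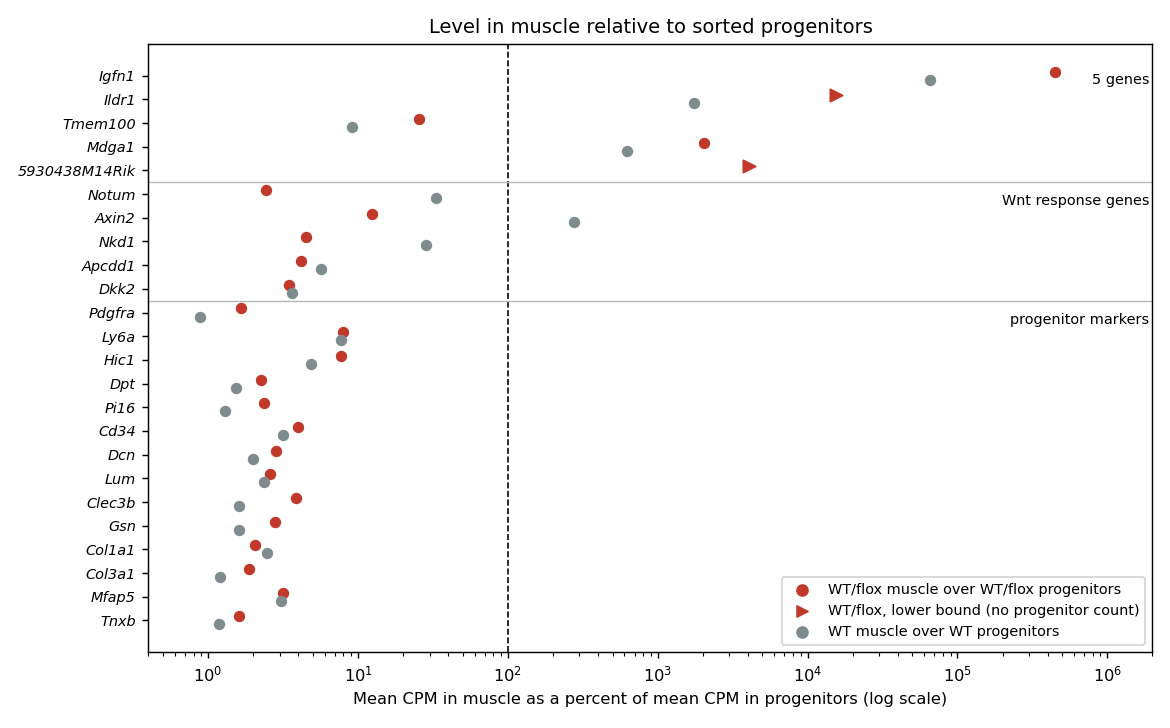
Mean CPM in muscle as a percent of mean CPM in progenitors of the same genotype (log axis) for the 5 genes, 5 Wnt response genes and 14 progenitor markers, with triangles for lower bounds where progenitors had no count. Progenitor markers lie between 0.881% and 7.93%, Tmem100 at 25.7% in WT/flox and 9.10% in WT, and the other members right of the dashed line at 100%. No WT point is drawn for 5930438M14Rik, which had no counts in WT progenitors and 1 count over WT muscle.

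The members were also set among the 65 genes called higher in WT/flox muscle. For 22 of the 65 the rise in CPM exceeded the whole WT/flox progenitor level, Igfn1, Ildr1, Mdga1 and 5930438M14Rik among them. In WT/flox progenitors 5 of the 65 had 3 counts or fewer: Igfn1, Ildr1, 5930438M14Rik, Cdcp1 and Myod1, the last 2 named after their values were seen. The shares of all genes that meet these limits were not calculated. Of the 65, edgeR called 28 higher and 1 lower in progenitors, 25 were tested and not called, and 11 had too few counts to test. Over all 12392 genes tested in progenitors it called 2.34% higher and 1.32% lower. Tmem100 and Mdga1 are among the 25 and the other members among the 11.

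**Figure D4:**
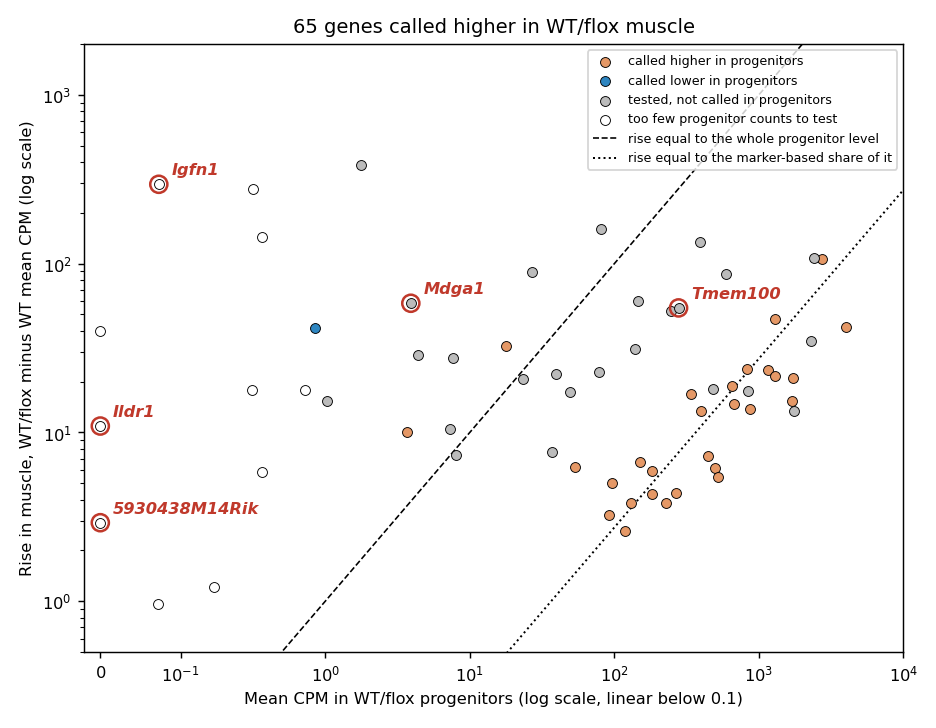
Rise in muscle (WT/flox minus WT mean CPM, log axis) against mean CPM in WT/flox progenitors (log axis, linear below 0.1) for the 65 genes called higher in muscle. The dashed line marks a rise equal to the whole progenitor level and the dotted line one equal to 2.74% of it; 22 genes lie above the dashed line, 4 of them ringed members, and Tmem100 lies between the lines.

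The profiles over the 5 muscle libraries were compared by the root mean square difference of centred log2 CPM, in which 0 means the same profile. The members were chosen on these same libraries, so genes with a similar fold change lie near them by that choice. Nearness is a description here, and shared regulation was not tested. Among 11724 genes, the nearest to Igfn1 was Mss51 at 0.35, a mitochondrial protein of skeletal muscle, followed by Pcdh20 at 0.41 and Prima1 at 0.43. Nearest to Ildr1 were Tmem132c at 0.29, Mss51 at 0.39 and 5930438M14Rik at 0.41. Tmem100 and Mdga1 had profiles closest to Mttp, a lipid transfer protein, at 0.13 and 0.11, and to Inhba, the activin A subunit, at 0.16 and 0.16. Nov, a matricellular protein, was also near Tmem100 at 0.14, and Tmem100 itself was the third nearest to Mdga1 at 0.16. Tmem132c at 0.39, Notum at 0.39 and Ildr1 at 0.41 were nearest to 5930438M14Rik. Genes alike in muscle differed in their progenitor levels: Mss51 averaged 1.77 CPM and Prima1 0.314 CPM in WT/flox progenitors, against 118.7 CPM for Pcdh20 and 227 CPM for Tmem132c.

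Genes beside the members were measured as well. Tmem9, which starts 1808 bp from the 5′ end of Igfn1 on the opposite strand, had 30.3, 23.3 and 30.7 CPM in WT/flox muscle (71B3, 71B4, 71B5), against 10.2 and 11.3 CPM in WT muscle. Tmem9 rose in muscle (log2 fold change 1.26, SE 0.18, edgeR adjusted p = 0.0261), and did not pass in progenitors (0.002, SE 0.23, adjusted p = 0.9996). The call in muscle was lost without 71B5 (1.27, adjusted p = 0.159) and without 71B4 (1.36, adjusted p = 0.0763). On the other side of Igfn1, Pkp1, a desmosomal protein, had 16 counts over WT/flox muscle and 0 over WT muscle and was not tested. The neighbours of Ildr1 (Cd86, Slc15a2), Tmem100 (Pctp, Mmd), Mdga1 (Ccdc167, Zfand3) and 5930438M14Rik (Slc30a5, Pik3r1) were tested in muscle and did not pass, with log2 fold changes of 0.41, 1.35, 0.23, 0.09, 0.18, 0.12, 0.24 and 0.53 in that order (edgeR adjusted p 0.419 to 0.924).

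Genes of other sarcomeric immunoglobulin and fibronectin proteins and of the partners of Igfn1 were counted as a list. Of 17 tested in muscle edgeR called 0 higher (6 at an unadjusted p under 0.05 in either direction; DESeq2 and limma voom each called 3) and 3 lower. The median log2 fold change was -0.30 beside 0.003 over all genes, and the highest in the list was 0.03. Flnc, filamin C, fell to 679 ± 100.4 CPM in WT/flox muscle, against 1723 ± 345 CPM in WT muscle (log2 fold change -1.48, SE 0.18, edgeR adjusted p = 0.0161). The M-band protein gene Myom3 fell (-2.21, SE 0.21, adjusted p = 0.00659), as did Mybph, a myosin-binding protein (-5.78, SE 0.57, adjusted p = 0.00863). Mybph varied widely in WT muscle (74.2 ± 57.6 CPM, against 1.48 ± 0.360 CPM in WT/flox muscle), and its log2 fold change was -4.57 without 73A7 and -6.43 without 73A5. Ky, at -0.69 (SE 0.21, adjusted p = 0.284), and Eef1a2, at -0.14 (SE 0.23, adjusted p = 0.920), did not pass. Without 71B5 the values of Flnc (-1.52), Myom3 (-2.06) and Mybph (-5.54) were similar and edgeR called none of the 3. Without 71B4 the calls of Flnc (-1.48, adjusted p = 0.101) and Mybph (-5.82, adjusted p = 0.0541) were lost, and without 71B3 that of Mybph (-5.99, adjusted p = 0.0950). In progenitors 8 of the list were tested and 0 called (3 at an unadjusted p under 0.05, 1 by DESeq2, 0 by limma voom).

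Among the relatives and partners of Ildr1, of 9 tight junction genes tested in muscle 0 were called by edgeR (2 at an unadjusted p under 0.05, 1 by DESeq2, 0 by limma voom), with a median of -0.18. Ildr2, a close relative, averaged 4.20 ± 0.378 CPM in WT/flox muscle and 1.65 ± 0.0704 CPM in WT muscle (log2 fold change 1.23, SE 0.23, edgeR adjusted p = 0.0776). Unlike Ildr1 it was abundant in progenitors, at 112 ± 29.0 CPM in WT/flox and 99.5 ± 37.1 CPM in WT libraries. Lsr, also of the angulin family, was at 0.655 CPM in WT/flox muscle and 0.678 CPM in WT muscle (edgeR adjusted p = 0.954). In progenitors 7 of the list were tested and 0 called (1 at an unadjusted p under 0.05, 0 by DESeq2 and 0 by limma voom).

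In a list of other genes around BMP9 and ALK1, which does not count Tmem100 itself, edgeR called 1 of 14 tested in muscle higher. It called 0 lower (3 at an unadjusted p under 0.05 in either direction, 2 by DESeq2, 1 by limma voom). The log2 fold changes ran from -0.20 to 1.23, with a median of 0.19. Atoh8, named after its value was seen, was the highest (SE 0.26, edgeR adjusted p = 0.111). Smad7, an inhibitory Smad, rose to 38.0 ± 8.07 CPM in WT/flox muscle, against 15.9 ± 3.16 CPM in WT muscle (log2 fold change 1.13, SE 0.18, edgeR adjusted p = 0.0443), a call lost without 71B5 (1.04, adjusted p = 0.217), 71B4 (1.24, adjusted p = 0.0985), 71B3 (1.11, adjusted p = 0.0866) or 73A7 (0.97, adjusted p = 0.0635). The receptor Acvrl1, ALK1 itself, averaged 20.5 ± 0.993 CPM in WT/flox muscle and 15.6 ± 0.336 CPM in WT muscle (adjusted p = 0.599), and its co-receptor Eng 50.1 ± 1.32 and 41.8 ± 0.0767 CPM (adjusted p = 0.838). The 9 endothelial markers together held 338 to 414 CPM in WT/flox muscle and 406 to 474 CPM in WT muscle, and these ranges overlapped. All 9 had a log2 fold change below 0 in muscle (-0.47 to -0.19, median -0.41), beside a median of 0.003 over all genes. Of these 9, edgeR called 0 in muscle (4 at an unadjusted p under 0.05, 0 by DESeq2, 0 by limma voom). Over all genes 1226 of 12654 tested in muscle had an unadjusted edgeR p under 0.05. In progenitors 14 genes of the ALK1 list were tested and 0 called (2 at an unadjusted p under 0.05, 0 by DESeq2 and 0 by limma voom).

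For Mdga1, 2 of 10 genes of the neuroligin and neurexin list were tested in muscle and 0 called (0 at an unadjusted p under 0.05, 0 by DESeq2 and 0 by limma voom). Nlgn2, the binding partner of Mdga1, averaged 5.11 ± 1.17 CPM in WT/flox muscle and 5.16 ± 1.83 CPM in WT muscle (log2 fold change -0.15, SE 0.29, edgeR adjusted p = 0.933). Mdga2, the paralog of Mdga1, had 4 counts over WT/flox muscle and 2 over WT muscle and was not tested. The 7 glial markers together held 98.1 to 107 CPM in WT/flox muscle and 106 to 118 CPM in WT muscle, which overlapped. In progenitors 4 genes of the list were tested and 0 called (0 at an unadjusted p under 0.05, 0 by DESeq2 and 0 by limma voom).

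Genes that muscle fibres use after denervation were counted for comparison, with 1 of 12 higher in muscle and 0 lower (median 0.10; 4 at an unadjusted p under 0.05, 2 by DESeq2, 1 by limma voom). The lowest of the list was Myog, another myogenic transcription factor, at -0.86 (SE 0.22, edgeR adjusted p = 0.181). Myod1, a myogenic transcription factor, rose to 70.2 ± 8.44 CPM in WT/flox muscle, against 30.3 ± 2.64 CPM in WT muscle (log2 fold change 1.09, SE 0.14, edgeR adjusted p = 0.0177), a call lost without 71B3 (1.06, adjusted p = 0.0504), 71B4 (1.14, adjusted p = 0.0960) or 71B5 (1.07, adjusted p = 0.107). Like Igfn1 and Ildr1 it had almost no counts in WT/flox progenitors, 0 in the 3 libraries. In progenitors 6 genes of the list were tested and 0 called (0 at an unadjusted p under 0.05, 0 by DESeq2 and 0 by limma voom). Among Wnt targets 5 of 10 tested were higher in muscle and 7 of 11 in progenitors, with 0 lower in either. In muscle DESeq2 called 5 and limma voom 4. With edgeR, Nkd1 was lost without 71B3 (1.62, adjusted p = 0.0520), 71B4 (1.65, adjusted p = 0.114) or 71B5 (1.75, adjusted p = 0.119), and Nkd2 without 73A7 (1.65, adjusted p = 0.0567), 71B4 (1.75, adjusted p = 0.175) or 71B5 (1.82, adjusted p = 0.229). Notum (5.596), Apcdd1 (2.24) and Dkk2 (2.42) were lost without 71B5 (adjusted p 0.0532 to 0.106). The 6 muscle stem cell markers together held 33.9 to 47.3 CPM in WT/flox muscle and 40.1 to 41.4 CPM in WT muscle.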

How the data were processed

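The authors deposited whole-number counts for each gene symbol, in 1 table per material. Per the labels' protocols a stranded poly(A) mRNA kit gave paired reads of 43 bp. Tools named in the submitters' processing notes are STAR, Bowtie and bcl2fastq 2.20, with build mm10. How reads were assigned to genes, strand included, is not stated there. Of 24421 symbols 23376 matched GENCODE M21 (GRCm38).

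Each material was fitted alone across all genes with edgeR 4.0.16 in R 4.3.3 (filterByExpr, TMM, robust quasi-likelihood F test, two-sided, Benjamini-Hochberg over all genes tested, threshold 0.05). Calls mean that threshold. CPM scale the deposited counts by the library total, without TMM, and the SE is that implied by the F statistic. The pipeline was tested on simulated data. Alternatives used DESeq2 1.42.0, limma 3.58.1, other scaling, no filter, a joint fit of 11 libraries, the replicate number of the deposited sample tables as a block, and each library left out. Sex was a term in progenitors only, so no muscle value is adjusted for sex. Profiles were compared on log2 CPM with a prior count of 2 over genes of at least 1 CPM.

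The members, lists and alternatives were chosen with earlier results of these data known, and the block was chosen after seeing the files. Named are the members, Ctnnb1, Hic1, the 3 most alike genes and nearest coding neighbours of each member, fixed partners and Wnt genes, up to 4 called genes per list, and the leading markers. Each p-value tests the difference between genotypes against the spread between mice, with that spread estimated in part across genes.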

Additional observations from a re-analysis of the deposited data

How the results depend on the processing

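Of the members, the muscle log2 fold changes kept their sign under all 12 alternatives. They ranged from 2.77 to 3.95 for Igfn1, 4.31 to 4.79 for Ildr1, 1.87 to 2.09 for Tmem100, 1.70 to 1.89 for Mdga1 and 5.34 to 8.75 for 5930438M14Rik. In progenitors Tmem100 ranged from 0.38 to 0.85 and was called under 0 of 14 alternatives (adjusted p 0.191 to 0.853). Mdga1 was at -0.039 without 73C3 and otherwise up to 0.45 (adjusted p 0.872 to 0.9998). Genes called in muscle were 92 in edgeR, 54 with total counts only, 139 with no filter and 265 with DESeq2, and 0 to 239 with 1 library left out. The count of 0 came without 71B5, where 1023 genes had an unadjusted p under 0.05 and the smallest adjusted p was 0.0532. It was 25 without 71B4, 239 without 73A5 and 207 without 73A7. Total counts only moved the median log2 fold change of all genes in muscle to 0.13, against which values under that scaling are read. Genes called in progenitors were 454 in edgeR, 752 with DESeq2, and 262 to 483 with 1 library left out, 262 without 74A3 and 266 without 72B7. The progenitor share was 7.73% in WT/flox muscle and 4.83% in WT muscle with Hic1 alone, and 1.65% and 0.881% with Pdgfra alone. The Tmem100 level carried in WT/flox muscle was 21.5 CPM, 4.58 CPM and, with 74A3 alone, 10.1 CPM under these choices. The cause of these shifts was not tested. The deposited sample tables number the mice of each genotype, and a fit with that number as a replicate block was added after seeing the data. It called 491 genes in progenitors and 178 in muscle, where it leaves 1 residual degree of freedom. Deviations of same-numbered progenitor mice correlated at 0.29, 0.031 and -0.13 across genes, and not every mouse correlated best with its own number. The pairs at 0.29 (74A1 and 74A2) and 0.031 (72B7 and 72B8) also share the start of their identifiers, whose meaning is not given, so whether the numbers pair mice is not settled.

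With 2 WT muscle libraries, the spread of WT rests on 1 difference. The counts of 0 to 3 of Igfn1, Ildr1 and 5930438M14Rik in progenitors set bounds on their levels there and do not show absence.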

Other observations

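Other genes called higher in WT/flox muscle also had little RNA in progenitors. They were picked after their values were seen and are given as values. Mss51 was 384 CPM higher in WT/flox than in WT muscle and averaged 1.77 CPM in WT/flox progenitors. Padi2, an enzyme that converts arginine residues to citrulline, was 276 CPM higher, with 0.315 CPM in WT/flox progenitors. Reep1, a protein that shapes the endoplasmic reticulum, was 144 CPM higher, with 0.364 CPM in WT/flox progenitors. Fam78a was 41.4 CPM higher in WT/flox muscle and was the 1 gene of the 65 that edgeR called lower in progenitors.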
